A study of Mus musculus with 4 samples.

Results

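The RGK proteins are a small family of Ras-like GTPases, and 4 genes of the 31053 in the deposited matrix encode them: Gem, Rrad (the protein Rad), Rem1 (the protein Rem) and Rem2. The members were taken by these symbols, and they were picked for attention because Gem and Rrad had already been seen to be higher after insulin in these libraries, so the difference between treatments is described below and not tested. Their transcripts were counted in single nuclei, captured in droplets, from the mediobasal hypothalamus, the part of the brain around the arcuate nucleus. The mice were wild-type animals with free access to chow, and their nuclei were isolated and cleaned by flow sorting. There were 2 groups, Saline and Insulin, of 2 libraries each. Each of 2 runs, as the deposited annotation calls them, numbered 230 and 232, held 1 library of each group. Libraries are named here by treatment and run. Neither the labels nor the deposited annotation gave the dose, the route, the time after treatment, the sex or the number of mice per library, so p-values measure the spread between these libraries, which may be technical. Xist, expressed from the inactive X chromosome of females, was at 4.53 and 4.88 CPM (unique molecular identifiers, UMIs, of the gene per 1000000 UMIs of the same nuclei) in the Saline and Insulin libraries of run 230 and at 1614 and 1713 CPM in those of run 232, so that run and sex cannot be told apart.

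RGK proteins bind the beta subunits of voltage-gated calcium channels and inhibit high-voltage-activated calcium currents at the plasma membrane. They also bind calmodulin and 14-3-3 proteins, and Gem acts on the cytoskeleton with the GTPase-activating protein Gmip. Gem was described as an immediate early gene of stimulated lymphocytes, and Rrad as a gene overexpressed in muscle of some patients with type 2 diabetes. Rem2 is the member best known from neurons, where activity induces it and it takes part in shaping synapses and dendrites. In the hypothalamus the calcium channels that these proteins restrain support neuropeptide release.

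The 4 genes lie on 4 chromosomes of GRCm38 (GENCODE M21), and each is protein coding. Gem (ENSMUSG00000028214) is on chromosome 4 from 11704457 to 11714752 on the plus strand, and Rrad (ENSMUSG00000031880) on chromosome 8 from 104628070 to 104631327 on the minus strand. Rem1 (ENSMUSG00000000359) is on chromosome 2 from 152626951 to 152635198, and Rem2 (ENSMUSG00000022176) on chromosome 14 from 54476100 to 54480431, both on the plus strand. Rrad is overlapped by Gm33023 (chromosome 8, 104630832 to 104636492), which is on the opposite strand, and whether the counting used strand is not given in the sources used here. Gm33023 itself was at 1.29 and 1.12 CPM in the Saline libraries of runs 230 and 232 and at 0.999 and 0.881 CPM in the Insulin libraries, and had 0 UMIs in the nuclei labelled Mural Cell. The nuclei gave 3910 UMIs of Gem, 1457 of Rrad, 508 of Rem2 and 152 of Rem1.

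The stretches just before the annotated starts of Rem1 and Rem2 are shown because these 2 members were the ones matched in the table used, and because Rem1 had its highest level in nuclei labelled Mural Cell. They are RefSeq sequences (GRCm38.p6), read 5′ to 3′ on the plus strand at chr2:152626758-152626950 and chr14:54475850-54476099, with capitals marking GGGCGG, the core of the GC box, on either strand. Promoters of Gem and Rrad were not matched.
Rem1: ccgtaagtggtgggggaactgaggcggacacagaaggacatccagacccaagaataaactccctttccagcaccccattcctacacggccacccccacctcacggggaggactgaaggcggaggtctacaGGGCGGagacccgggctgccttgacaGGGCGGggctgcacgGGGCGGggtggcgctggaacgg
Rem2: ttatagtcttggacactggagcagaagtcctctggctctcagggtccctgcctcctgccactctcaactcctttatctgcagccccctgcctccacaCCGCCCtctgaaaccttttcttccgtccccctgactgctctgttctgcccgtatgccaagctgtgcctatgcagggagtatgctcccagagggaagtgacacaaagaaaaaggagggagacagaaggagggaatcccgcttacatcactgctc
The Rem1 stretch has a GC content of 65.8% and 3 matches to GGGCGG, and the Rem2 stretch 55.6% and 1 match, on the reverse strand. Of 32851 promoters, 23.5% held this motif in a window of 193 bases placed as in Rem1 and 32.7% in 250 bases. Neither stretch held the cAMP response element TGACGTCA, its shorter form TGACG or a CArG box, each searched on both strands. TGACGTCA is itself a match to TGACG. TGACGTCA was held by 0.737% and 1.55% of all promoters at these lengths, TGACG by 12.003% and 17.77%, and a CArG box by 1.09% and 1.47%. GGGCGG was added to the search after the sequences had been seen.

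The deposited annotation placed 36523 analysed nuclei in the 4 libraries, each with 63590421 to 71391593 UMIs, and named 23261 of them neurons. Median depth per nucleus ran from 5473 to 6860 UMIs over libraries, and 318 barcode sequences occurred in more than 1 library. Of 24 markers of the 8 labelled cell types, 19 had their highest level in their own type. The exceptions bear on the members. Nuclei labelled Endothelial had Cldn5 at 1.69 CPM and Pecam1 at 3.87 CPM, against 538 and 195 CPM in nuclei labelled Mural Cell. The endothelial marker Flt1 was present in them at 279 CPM, against 1621 CPM in nuclei labelled Mural Cell. They also held the most Rax, a tanycyte marker, at 84.4 CPM. Nuclei labelled Mural Cell carried both endothelial markers and the mural markers Pdgfrb (525 CPM), Rgs5 (598 CPM) and Acta2 (226 CPM). These 2 sets are therefore called by their deposited labels only. The label M26.Agrp was borne out by Agrp (855 CPM), Npy (517 CPM) and Lepr (473 CPM), each highest there of all populations tested.

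Gem was found in every labelled cell type and had its highest levels in nuclei labelled Endothelial and in neurons. In nuclei labelled Endothelial it was at 16.6 and 51.3 CPM in the Saline libraries of runs 230 and 232, and at 14.7 and 36.0 CPM in the Insulin libraries. Both libraries of run 232 were above both of run 230 there. In neurons it was at 10.1 and 11.2 CPM in the Saline libraries and at 18.5 and 25.98 CPM in the Insulin libraries. The means were 29.7 ± 17.4 CPM (SD, n = 4 libraries) in nuclei labelled Endothelial and 16.5 ± 7.38 CPM in neurons, followed by Ependymo at 14.5 ± 10.2 CPM (20 UMIs), Mural Cell at 10.9 ± 4.18 CPM (11 UMIs) and microglia at 7.42 ± 9.15 CPM (16 UMIs). Astrocytes (2.72 ± 0.84 CPM), oligodendrocyte precursors (OPC, 2.33 ± 2.32 CPM) and oligodendrocytes (1.42 ± 0.82 CPM) came last. The range of each type overlapped that of the next in this order.

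Each type was compared with the average of the remaining 7 by a quasi-likelihood test in edgeR, and p-values were adjusted over all genes by the Benjamini-Hochberg method. Gem was higher in nuclei labelled Endothelial (log2 2.22, SE 0.30, adjusted p = 1.26e-07) and in neurons (log2 1.49, SE 0.22, adjusted p = 2.36e-07). It was lower in astrocytes (log2 -1.38, SE 0.37, adjusted p = 0.00198) and oligodendrocytes (log2 -2.45, SE 0.57, adjusted p = 3.83e-04) by the same edgeR test. The call in OPC (log2 -1.51, SE 0.55, edgeR adjusted p = 0.0261) rested on 14 UMIs and was lost without the Saline library of run 230, the Insulin library of run 230 or the Insulin library of run 232. Summed over libraries, Gem in neurons was 5.89 times that in astrocytes (exact 95% interval 4.46 to 7.95) and 12.002 times that in oligodendrocytes (6.52 to 25.05). These intervals cover counting error only. Of the 24 contrasts of 3 members with 8 types, 9 passed, and over all 14597 genes tested 46.5% of such contrasts passed. Rem2 did not pass the filter on low counts and is in none of them.

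The nuclei labelled Endothelial were split by markers, with libraries that did not all go the same way for Gem. Summed over libraries, the 331 nuclei with a UMI of Rax held 16 Gem UMIs, or 11.9 CPM, and the 1110 without held 134 UMIs, or 36.5 CPM. The 503 nuclei with endothelial but no mural markers had 45.9 CPM, and the 836 with neither had 22.5 CPM. Of the endothelial markers, Flt1 gave 1453 UMIs under this label, Pecam1 18 and Cldn5 7, so this set rests mostly on Flt1. In the Insulin library of run 230 nuclei with Rax were the higher, at 23.98 CPM against 11.01 CPM. In the Saline library of run 232 nuclei with neither kind of marker were the higher, at 65.1 CPM against 45.4 CPM with endothelial markers alone. The Insulin library of run 232 held 48 of the 80 Gem UMIs of nuclei with endothelial markers alone, at 73.9 CPM against 15.1 CPM with neither. This split by markers was chosen after the data had been seen, and no test was made of it.

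**Figure D1:**
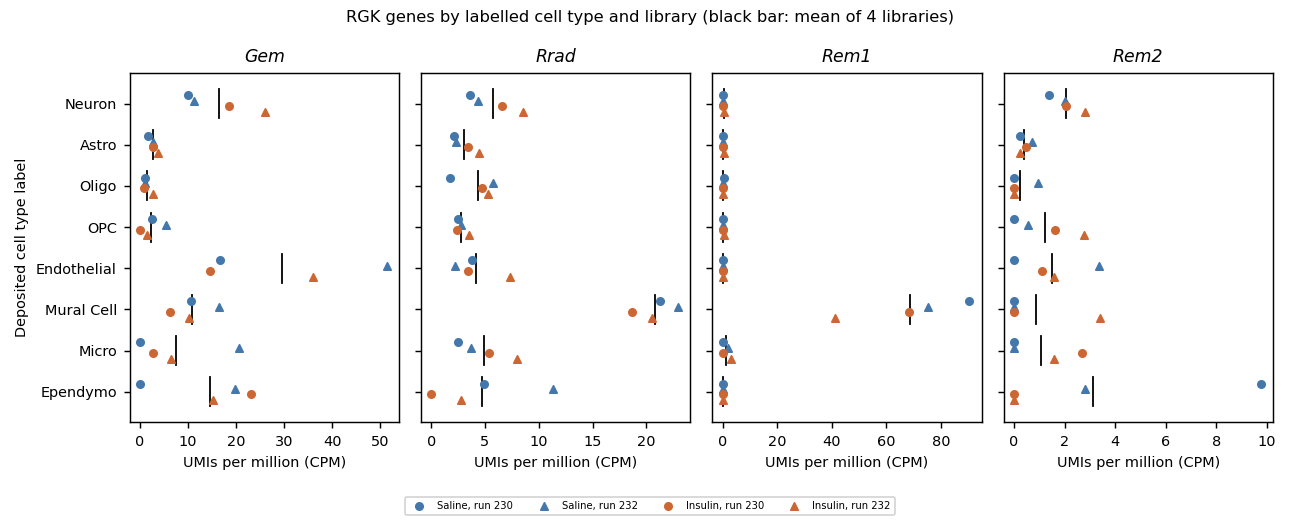
CPM of Gem, Rrad, Rem1 and Rem2 in each deposited cell type, 1 point per library and a black bar for the mean of 4 libraries. Rem1 stands at 41.0 to 90.3 CPM in nuclei labelled Mural Cell and near 0 elsewhere, while Gem is highest in nuclei labelled Endothelial and in neurons.

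Rrad, the gene of Rad, was highest in nuclei labelled Mural Cell. There it stood at 21.3 and 22.9 CPM in the Saline libraries of runs 230 and 232 and at 18.7 and 20.5 CPM in the Insulin libraries, from 20 UMIs in all. The mean was 20.8 ± 1.77 CPM (SD, n = 4), and none of these libraries overlapped with neurons, the next type, at 5.76 ± 2.25 CPM. The remaining types had means of 2.77 to 4.91 CPM, and each overlapped with the next. By edgeR's test Rrad was higher in nuclei labelled Mural Cell than in the mean of the others (log2 2.05, SE 0.38, adjusted p = 4.17e-05), and 18.0% of all genes were higher there. Neurons did not pass (log2 0.23, SE 0.17, edgeR adjusted p = 0.232). Without the Saline library of run 232 they did (log2 0.56, edgeR adjusted p = 0.0112). Astrocytes were lower (log2 -0.71, SE 0.24, edgeR adjusted p = 0.0110), a call that was lost without the Saline library of run 232. The call of a lower level in OPC (log2 -0.86, SE 0.35, edgeR adjusted p = 0.0460) was lost without any 1 of the 4 libraries.

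Rem1 had by far its highest level in nuclei labelled Mural Cell. These 362 nuclei, 64 to 115 per library, held 63 of its 152 UMIs, and the 23261 neurons held 78. In nuclei labelled Mural Cell its level was 90.3 and 75.4 CPM in the Saline libraries of runs 230 and 232 and 68.4 and 41.0 CPM in the Insulin libraries, with a mean of 68.8 ± 20.6 CPM (SD, n = 4). Neurons had 0.22, 0.32, 0.25 and 0.66 CPM in the same order. Summed over libraries, the level in nuclei labelled Mural Cell was 191 times that in neurons (exact 95% interval 135 to 269). No UMI was found in nuclei labelled Endothelial. With 3 counts taken there as a rough upper bound for a count of 0, the level in Mural Cell nuclei was 111 times that bound. This value leaves out the counting error of the 63 UMIs. Microglia held 3 UMIs, and the ratio to them was 42.8 (14.0 to 213). Astrocytes held 4 UMIs, OPC and oligodendrocytes 1 each, and Ependymo 0. EdgeR called Rem1 higher in nuclei labelled Mural Cell (adjusted p = 6.62e-15). Its fitted difference is not given, because types with 0 UMIs enter the mean of the others, and its contrasts with the remaining types did not pass.

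Within the label Mural Cell, most UMIs of Rem1 and Rrad lay in nuclei with mural markers alone when summed over libraries. The 146 nuclei with UMIs of mural but not of endothelial markers held 45 of the 63 Rem1 UMIs, or 148 CPM, and 14 of the 20 Rrad UMIs, or 46.2 CPM. The 73 nuclei with endothelial markers alone held 2 Rem1 UMIs (11.4 CPM) and 1 Rrad UMI. The 102 with both held 15 (40.4 CPM) and 5, and the 41 with neither held 1 and 0. For Rem1 the nuclei with mural markers alone had the highest level of these sets in each library, at 113 to 182 CPM. For Rrad the Insulin library of run 230 was an exception, with 0 UMIs in nuclei with mural markers alone, 1 with endothelial markers alone and 2 with both. This split was also made after the data had been seen. A Rem1 UMI was present in 53 of the 362 nuclei, or 14.6% (exact 95% interval 11.2 to 18.7). The pore gene Cacna1c, of the L-type channel of vascular smooth muscle, was also higher in nuclei labelled Mural Cell (log2 1.76, SE 0.18, edgeR adjusted p = 5.11e-10), whereas the pore genes Cacna1d (log2 -0.99, SE 0.15, edgeR adjusted p = 1.01e-06) and Cacna1a (log2 -0.67, SE 0.18, edgeR adjusted p = 0.00377) were lower.

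Rem2 was low in every labelled cell type, and 453 of its 508 UMIs were in neurons, which held 82.4% of all UMIs. In neurons it was at 1.39 and 2.00 CPM in the Saline libraries of runs 230 and 232 and at 2.04 and 2.80 CPM in the Insulin libraries. The mean was 2.06 ± 0.58 CPM (SD, n = 4), and the level summed over libraries was 4.64 times that in astrocytes (exact 95% interval 2.33 to 10.8) and 7.57 times that in oligodendrocytes (2.08 to 62.7, from 2 UMIs there). Ependymo had the highest mean, 3.14 ± 4.60 CPM, from 3 UMIs, and neurons had 0.927 times its summed level (0.315 to 4.51). The ratio to nuclei labelled Endothelial was 1.45 (0.7002 to 3.64), that to OPC 1.54 (0.741 to 3.85), that to Mural Cell 1.92 (0.343 to 75.98) and that to microglia 1.96 (0.538 to 16.2). A difference of neurons from these 5 types was not detectable at this depth. No type other than neurons held more than 8 Rem2 UMIs.

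Among the 35 neuron populations tested, Gem covered a wide range. Its highest mean was in M31.Th, the population of the dopamine-synthesis gene Th, with 60.2 and 133 CPM in the Saline libraries of runs 230 and 232 and 133 and 212 CPM in the Insulin libraries. M27.Trh, named for thyrotropin-releasing hormone, had 82.6 and 36.2 CPM in the Saline libraries and 113 and 193 CPM in the Insulin libraries. M26.Agrp, the population of the hunger peptide AgRP, had 32.8 and 36.0 CPM in the Saline libraries and 142 and 105 CPM in the Insulin libraries. M24.Avp/Oxt, named for vasopressin and oxytocin, had 20.6 and 41.7 CPM in the Saline libraries and 62.0 and 149 CPM in the Insulin libraries. M25.Ghrh, named for growth hormone-releasing hormone, was the fifth, with 20.2, 55.5, 32.0 and 48.4 CPM in the same order. Ranges of neighbours in this order overlapped throughout, so the ranks within it are not resolved.

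By edgeR's test against the mean of the other populations, with Benjamini-Hochberg adjustment over all genes, Gem was higher in M31.Th (log2 3.41, SE 0.19, adjusted p = 4.23e-34), M27.Trh (log2 3.06, SE 0.27, adjusted p = 1.81e-18), M26.Agrp (log2 2.55, SE 0.19, adjusted p = 9.77e-24), M24.Avp/Oxt (log2 2.34, SE 0.33, adjusted p = 3.01e-09) and M25.Ghrh (log2 1.61, SE 0.36, adjusted p = 1.82e-04). M36.Sst/Pnoc, M29.Hcrt/Npvf and M17.GABA also passed, with log2 differences of 1.41, 1.39 and 1.18. These contrasts, and those of Rrad below, take Saline and Insulin libraries together. The higher Insulin values on which the members were chosen therefore enter them, and Saline libraries alone were not tested. At the other end, Gem was nearly absent from M5.Snypo2 (0.95 ± 1.24 CPM, 4 UMIs, log2 -3.29, edgeR adjusted p = 8.42e-04), and low in M10.Sim1|Trh (2.48 ± 0.59 CPM, 14 UMIs, log2 -2.30, edgeR adjusted p = 2.63e-04) and M12.Npffr1 (2.70 ± 2.09 CPM, 16 UMIs, log2 -2.28, edgeR adjusted p = 1.53e-04). Without the Insulin library of run 230 the call in M29.Hcrt/Npvf was lost (log2 1.07, SE 0.44, edgeR adjusted p = 0.0882). The calls in the last 3 were lost without it too, with edgeR adjusted p = 1 and no usable SE. That library held all 3 Gem UMIs of M1.GABA, and the part of this in the lost calls was not tested. Of 70 contrasts of Gem and Rrad with populations, 28 passed, and over all 13858 genes tested 21.1% of such contrasts passed.

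Rrad shared some of these populations with Gem and not others. It was highest in M26.Agrp, at 15.3 and 24.004 CPM in the Saline libraries of runs 230 and 232 and 55.7 and 38.8 CPM in the Insulin libraries (log2 2.85 against the other populations, SE 0.21, edgeR adjusted p = 2.07e-25). M27.Trh followed with 22.5 and 0 CPM in the Saline libraries and 34.2 and 66.7 CPM in the Insulin libraries (log2 2.82, SE 0.32, edgeR adjusted p = 6.44e-13). Of the 6 Rrad UMIs in the Saline library of run 230 there, 5 came from 1 nucleus. Next came M18.Prlh, named for prolactin-releasing peptide, at 15.7 ± 4.75 CPM (SD, n = 4, log2 1.84, SE 0.23, edgeR adjusted p = 1.98e-11), and M16.Npsr1 at 12.02 ± 1.94 CPM (log2 1.49, SE 0.26, edgeR adjusted p = 1.39e-06). M29.Hcrt/Npvf had 10.8 ± 9.01 CPM (log2 1.29, SE 0.36, edgeR adjusted p = 0.00408), a call lost without the Insulin library of run 230. The lowest means were in M7.Ust (1.21 ± 0.93 CPM, 6 UMIs, log2 -1.81, edgeR adjusted p = 0.0106), M6.Slc17a8 (1.36 ± 1.36 CPM, 6 UMIs, log2 -1.70, edgeR adjusted p = 0.0225) and M5.Snypo2 (1.37 ± 1.13 CPM, 4 UMIs), which did not pass. The call in M6.Slc17a8 was lost without any 1 of the 4 libraries, and that in M7.Ust without the Insulin library of run 232. In M31.Th, where Gem was highest, Rrad had 28 UMIs, at 4.11, 2.89, 15.3 and 7.65 CPM, and it did not pass. A test of the difference between the Gem and Rrad profiles was not made.

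**Figure D2:**
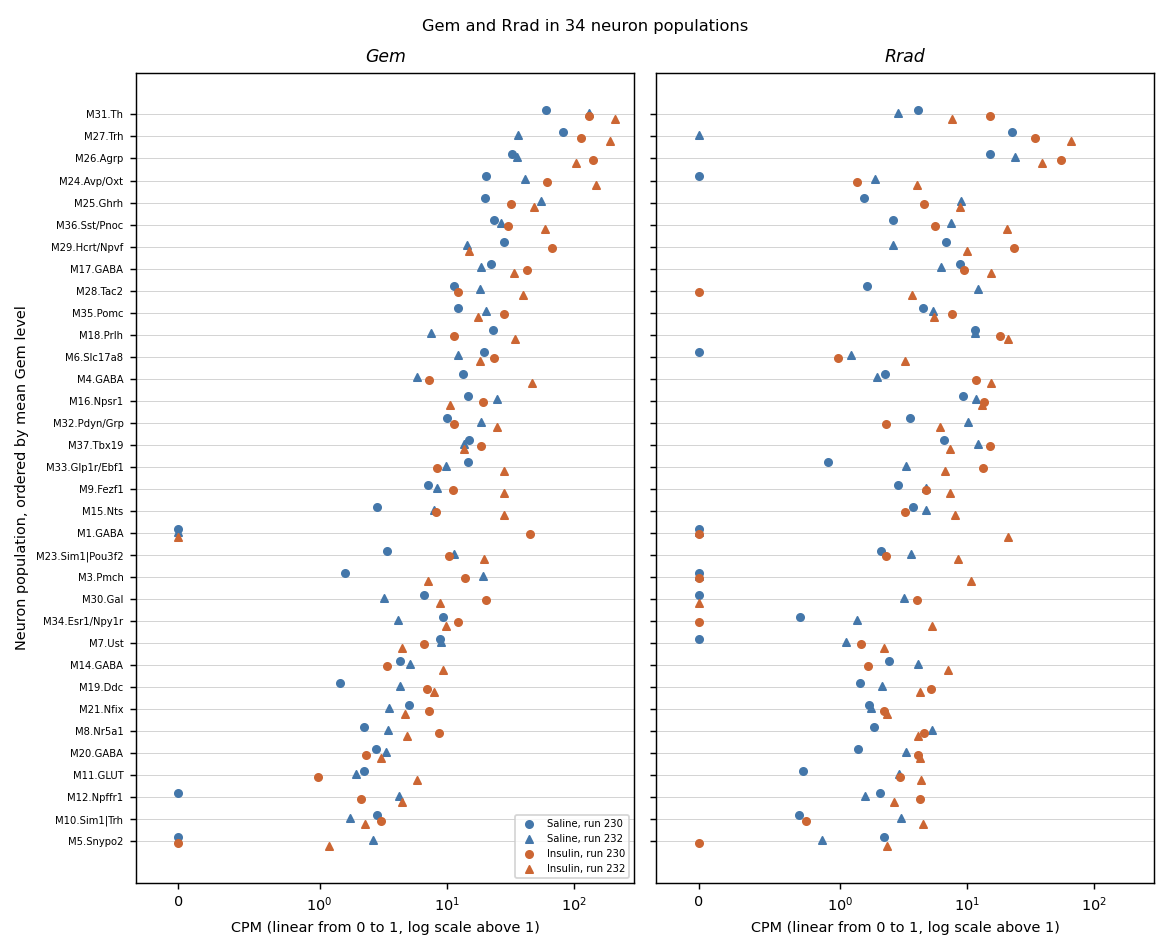
CPM of Gem and Rrad in 34 of the 35 neuron populations, 1 point per library, ordered by mean Gem level, on an axis that is linear from 0 to 1 and logarithmic above. M31.Th, M27.Trh, M26.Agrp and M24.Avp/Oxt lead for Gem, while Rrad is highest in M26.Agrp and M27.Trh.

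A few populations held much of the transcript. M26.Agrp, M27.Trh and M31.Th together were 5.36% of neurons, with 31.6% of the Gem UMIs and 21.2% of the Rrad UMIs in neurons. Gem was also uneven from nucleus to nucleus. In neurons 17 and 16 nuclei of the Saline libraries of runs 230 and 232 held 5 or more Gem UMIs, against 46 and 52 in the Insulin libraries, and single nuclei reached 11, 13, 36 and 39 UMIs in that order. In M26.Agrp 1 nucleus of the Insulin library of run 230 held 36 of its 189 Gem UMIs. With the nucleus of most Gem UMIs left out of each library, M26.Agrp stood at 29.0 and 33.0 CPM in the Saline libraries and at 116 and 90.5 CPM in the Insulin libraries. The order of these libraries was the same as with it.

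Rem1 and Rem2 gave too few UMIs to be tested against the other populations. The populations with the most Rem2 UMIs were M9.Fezf1 (53) and M8.Nr5a1 (37). Their fitted log2 differences, Insulin minus Saline, were 0.70 (SE 0.46) and 0.92 (SE 0.49). Both Insulin libraries were above both Saline libraries in each, as for 10.8% and 10.7% of all genes. Rem2 had its highest mean in M4.GABA, at 4.51 and 1.96 CPM in the Saline libraries of runs 230 and 232 and 8.80 and 31.2 CPM in the Insulin libraries, with 18 of its 29 UMIs in the last of these. By mean, M24.Avp/Oxt (8.72 CPM, 13 UMIs), M28.Tac2 (4.97 CPM, 11 UMIs), M5.Snypo2 (4.30 CPM, 17 UMIs) and M3.Pmch (3.56 CPM, 6 UMIs) came next. The 3 lowest were M29.Hcrt/Npvf with 2 UMIs, M33.Glp1r/Ebf1 with 1 and M30.Gal with 0. Rem1 reached at most 9 UMIs in a population, in M35.Pomc, the population of the satiety peptide precursor Pomc. M3.Pmch, which had its highest mean Rem1 level (2.49 CPM), held 3 UMIs.

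Gem was higher in both Insulin libraries than in both Saline libraries in all nuclei, in neurons and in M26.Agrp. In all nuclei it was at 9.21 and 10.5 CPM in the Saline libraries of runs 230 and 232, and at 16.4 and 22.6 CPM in the Insulin libraries. The fitted difference was log2 0.98 (SE 0.20). In neurons, with the levels given above, Gem in the Insulin library was 1.84 times that in the Saline library in run 230 and 2.31 times in run 232, and the fitted difference was log2 1.06 (SE 0.20). In M26.Agrp the fitted difference was log2 1.83 (SE 0.24). Both Insulin libraries exceeded both Saline libraries for 8.44% of all genes in all nuclei, for 8.74% in neurons and for 16.2% in M26.Agrp. EdgeR called 0 of 21190 genes in all nuclei (88 at an unadjusted p under 0.05), 0 of 20275 in neurons (103) and 0 of 11227 in M26.Agrp (379). DESeq2 called 0, 0 and 1. A fit blocked on the run gave 0, 0 and 32 calls in edgeR and 5, 10 and 1 in DESeq2. Since the members were chosen on this contrast, nothing is read from these shares.

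Rrad showed the same order of libraries. It was at 3.46 and 4.33 CPM in the Saline libraries of runs 230 and 232 in all nuclei, and at 6.16 and 7.85 CPM in the Insulin libraries (log2 0.84, SE 0.24). In neurons the levels were 3.56 and 4.39 CPM, and 6.54 and 8.57 CPM (log2 0.92, SE 0.23). In M26.Agrp the fitted difference was log2 1.30 (SE 0.33), and the libraries did not overlap. Rem2 in neurons was also higher in both Insulin libraries, but the lower of these, 2.04 CPM, was close to the higher Saline library, 2.00 CPM (log2 0.51, SE 0.32). Rem1 in neurons overlapped between the groups (log2 0.74, SE 0.60), from 13 and 18 UMIs in the Saline libraries and 14 and 33 in the Insulin libraries. In nuclei labelled Mural Cell both Insulin libraries were below both Saline libraries for Rem1 (log2 -0.65, SE 0.43, 11 and 12 UMIs against 17 and 23), as for 14.9% of all genes there. The value was -0.28 without the Insulin library of run 232 and -1.01 without that of run 230. Acta2, a marker of contractile mural cells, ranged from 10.6 to 417 CPM over these libraries, and the makeup of the labelled set was not tested for its part in the Rem1 values.

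The difference in Gem was not confined to M26.Agrp. Neurons without that population had 9.37 and 10.8 CPM in the Saline libraries of runs 230 and 232 and 15.6 and 23.5 CPM in the Insulin libraries. Without M26.Agrp, M27.Trh and M31.Th the values were 8.39 and 8.34 CPM and 12.2 and 18.3 CPM. Rrad without these 3 populations was at 3.11 and 4.11 CPM in the Saline libraries and at 4.82 and 7.08 CPM in the Insulin libraries. In each of these sets both Insulin libraries were above both Saline libraries.

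Of 29 populations with at least 20 Gem UMIs, 18 had more Gem CPM in the Insulin library in both runs and 2 had less in both. In 12 of the 29 both Insulin libraries were above both Saline libraries, and in 1 below. For all genes the share above ranged from 10.7% to 17.6% over the 35 populations. By mean log2 difference over the 2 runs the largest of those reported were in M26.Agrp (1.82), M24.Avp/Oxt (1.65), M15.Nts (1.65), M19.Ddc (1.44) and M27.Trh (1.40). Each stayed above 0 with any 1 library left out, but the sizes moved. The fitted log2 difference then ran from 0.71 (without the Insulin library of run 232) to 2.60 (without the Saline library of run 232) in M15.Nts, and from 0.90 to 2.14 without the same libraries in M24.Avp/Oxt. It ran from 0.80 (without the Saline library of run 230) to 2.21 (without that of run 232) in M19.Ddc, from 0.88 (without the Saline library of run 232) to 2.14 (without that of run 230) in M27.Trh, and from 1.58 to 2.05 in M26.Agrp. In M15.Nts, named for neurotensin, Gem was at 2.82 and 7.91 CPM in the Saline libraries of runs 230 and 232 and at 8.23 and 28.4 CPM in the Insulin libraries. In M19.Ddc it was at 1.45 and 4.29 CPM and at 7.002 and 7.94 CPM. In M15.Nts the lower Insulin library was little above the higher Saline library.

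The smallest mean differences were in M7.Ust (-0.65), M16.Npsr1 (-0.41) and M20.GABA (-0.15). In M7.Ust Gem was lower after insulin in both runs, at 8.82 and 9.01 CPM in the Saline libraries of runs 230 and 232 and at 6.67 and 4.45 CPM in the Insulin libraries. M20.GABA was also lower in both runs, at 2.80 and 3.31 CPM against 2.30 and 3.06 CPM, and so was M5.Snypo2, with 4 UMIs in all. M16.Npsr1 had a fitted log2 difference of -0.85 to 0.03 with 1 library left out, above 0 without the Insulin library of run 232. It went in opposite directions in the 2 runs, from 14.7 to 19.3 CPM in run 230 and from 24.9 to 10.7 CPM in run 232. M35.Pomc did so too, from 12.4 to 28.2 CPM and from 20.5 to 17.8 CPM, with a mean log2 difference of 0.49. Whether the populations differ from each other in the insulin difference was not tested.

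Rrad had at least 20 UMIs in 20 populations, and in 16 of these it was higher in the Insulin library in both runs. In 13 both Insulin libraries were above both Saline libraries, and M32.Pdyn/Grp was the 1 population lower in both runs, at 3.57 and 10.3 CPM in the Saline libraries of runs 230 and 232 against 2.31 and 6.19 CPM in the Insulin libraries. For all genes the share above ranged from 10.7% to 17.6% over the 35 populations tested. Since Rrad was chosen on this contrast, nothing is read from its count. M4.GABA had 2.26 and 1.96 CPM in the Saline libraries and 11.7 and 15.6 CPM in the Insulin libraries, from 20 UMIs. M29.Hcrt/Npvf had 6.85 and 2.62 CPM in the Saline libraries and 23.5 and 10.1 CPM in the Insulin libraries. Gem in M29.Hcrt/Npvf was at 28.3 and 14.4 CPM against 67.6 and 15.1 CPM, a difference seen mainly in run 230. These 3 populations were chosen for mention after their Rrad values had been seen.

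**Figure D3:**
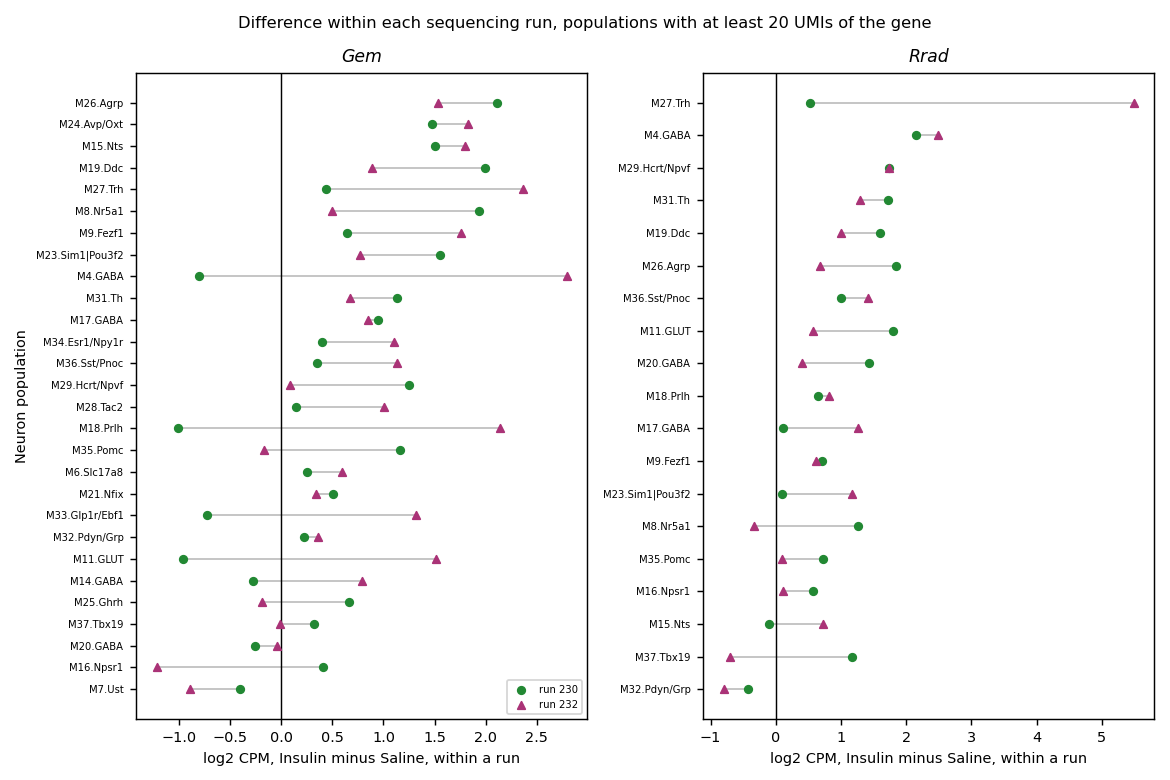
Difference in log2 CPM, Insulin minus Saline, within run 230 (circles) and run 232 (triangles) for populations with at least 20 UMIs of Gem (28 of 29 drawn, left) or Rrad (19 of 20 drawn, right). Most points lie to the right of 0, and the far Rrad point of M27.Trh in run 232 rests on a Saline library with 0 UMIs and on the prior count of 0.5.

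In astrocytes and in nuclei labelled Endothelial the Gem levels of the 2 groups overlapped. In astrocytes Gem was at 1.66 and 2.81 CPM in the Saline libraries of runs 230 and 232 and at 2.69 and 3.71 CPM in the Insulin libraries (log2 0.47, SE 0.53). Rrad in astrocytes was at 2.14 and 2.28 CPM and at 3.42 and 4.40 CPM, with both Insulin libraries higher (log2 0.79, SE 0.47), as for 15.4% of all genes there. In nuclei labelled Endothelial the Gem level was lower after insulin in each run and overlapped between the groups (log2 -0.29, SE 0.56). Leaving out 1 library moved this value between -1.18 (without the Insulin library of run 232) and 0.70 (without the Saline library of run 232).

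The share of neurons with at least 1 Gem UMI was 5.56% and 7.53% in the Saline libraries of runs 230 and 232, and 9.46% and 10.0% in the Insulin libraries. In oligodendrocytes, a type with little Gem, the share was 0.273% and 0.266%, and 0.252% and 0.624%. Median depths were 7164 to 9331 UMIs in neurons and 2184 to 2522 UMIs in oligodendrocytes. With every nucleus thinned to 1500 UMIs the neuronal shares were 1.51% and 1.70%, and 2.52% and 3.20%, and those of oligodendrocytes 0.161% to 0.522%. The neurons of the Insulin library of run 232 were the shallowest and still had the highest share. In M26.Agrp 15.2% and 25.3% of nuclei had a Gem UMI in the Saline libraries, and 42.7% and 31.9% in the Insulin libraries. Thinned to 5000 UMIs these became 11.4% and 15.6%, and 32.4% and 24.8%. A nucleus of M26.Agrp with Gem held on average 2.00 and 1.43 UMIs in the Saline libraries and 3.10 and 2.71 in the Insulin libraries. Both the share of nuclei with Gem and this mean count were thus higher. Few nuclei weighed heavily in the mean. Those with 5 or more Gem UMIs held 18 of 58 and 0 of 33 UMIs in the Saline libraries. In the Insulin libraries they held 104 of 189 and 76 of 160. The count in the remaining nuclei was not compared.

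The Rrad share in neurons was 2.87% and 3.999% in the Saline libraries of runs 230 and 232, and 4.85% and 5.11% in the Insulin libraries. At 1500 UMIs it was 0.566% and 0.648%, and 1.01% and 1.24%, while that of oligodendrocytes was 0.325% and 0.932%, and 0.744% and 0.725%. At equal depth the share over all neurons was thus near that of oligodendrocytes, and in the Saline library of run 232 below it. No higher share in neurons as a whole is read for that library. Oligodendrocytes held 33 Rrad UMIs in all, so their shares are imprecise, and they are not shown to measure a background. Without thinning, the Rrad share in M26.Agrp was 12.6% and 15.4% in the Saline libraries and 26.6% and 16.8% in the Insulin libraries. That was above the unthinned share of all neurons in each library. M26.Agrp was not thinned to 1500 UMIs. Thinned to 5000 UMIs its share was 6.93% and 9.38%, and 16.8% and 12.9%. The Rem2 share of neurons thinned to 5000 UMIs was 0.67% and 0.96%, and 1.03% and 1.33%. Rem1 was in 0.20% to 0.52% of neurons without thinning.

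Rrad was detected in a larger share of the nuclei with Gem than of those without, though in a minority of both. Among 20233 neurons thinned to 5000 UMIs, Rrad was detected in 9.81% and 4.87% of nuclei with a Gem UMI in the Saline libraries of runs 230 and 232, and in 13.4% and 9.30% in the Insulin libraries. Of nuclei without Gem, 1.39% and 1.78%, and 2.25% and 3.01%, had a Rrad UMI. Within M26.Agrp, 3 of 20 and 1 of 12 nuclei with Gem had Rrad in the Saline libraries, and 12 of 43 and 7 of 42 in the Insulin libraries. Of M26.Agrp nuclei without Gem the shares were 4.52% and 5.26%, and 13.8% and 10.9%. So few nuclei with Gem make their shares imprecise. At least 1 gene of a list of 19 activity- and CREB-induced genes (CREB is the cAMP-responsive transcription factor) was present in 62.1% and 50.9%, and 64.2% and 67.6%, of neurons with Gem, against 38.8% and 40.8%, and 43.5% and 46.3%, of neurons without. In M26.Agrp of the Saline library of run 230 this order was not seen, with 60.0% against 63.2%. That 63.2% of M26.Agrp nuclei without Gem compares with 38.8% of all neurons without Gem in the same library. The part of population makeup in these shares was not tested. Taken singly, Junb went the other way in the Saline library of run 232, at 2.65% of neurons with Gem against 3.37% without. In the other libraries Junb was more often found with Gem. Nuclei of a library are not replicates, and no test was made.

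**Figure D4:**
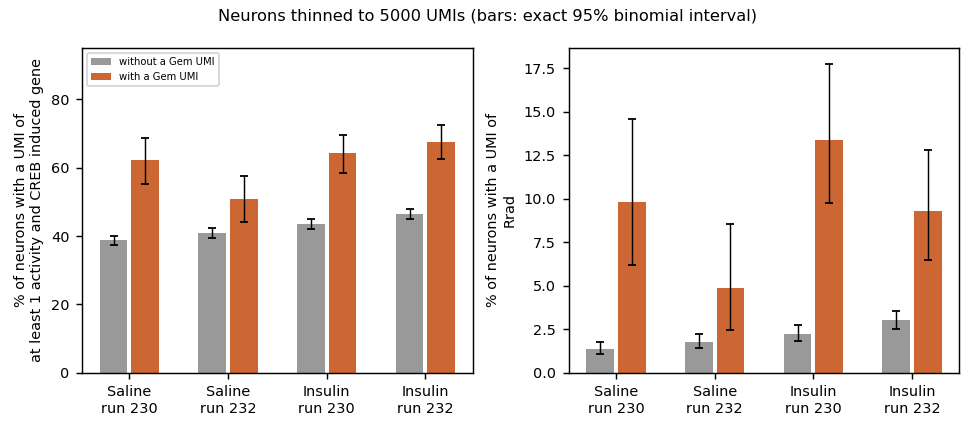
Percentage of neurons, thinned to 5000 UMIs, with a UMI of at least 1 activity- and CREB-induced gene (left) or of Rrad (right), for neurons with and without a Gem UMI in each library, with exact 95% binomial intervals that cover counting error only. In every library both shares are higher in the nuclei with Gem.

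The activity- and CREB-induced genes themselves were placed like Gem in neurons. Of 19 tested, 15 were higher in both Insulin libraries than in both Saline libraries and 0 lower in both, with a median log2 difference of 0.89 against 0.00 for all 20275 genes. Over all genes in neurons 8.74% were higher in both and 11.6% lower in both. None of the list passed the adjusted threshold in edgeR, without a block or blocked on the run. Without the block 7 had an unadjusted p under 0.05 in edgeR. DESeq2 blocked on the run called genes of the lists in neurons, as given at the end. Btg2, an early antiproliferative gene, had the smallest p, at 10.7 and 12.2 CPM in the Saline libraries of runs 230 and 232 and 17.4 and 28.1 CPM in the Insulin libraries (log2 0.98, SE 0.25). Fos, named after its values had been seen, was at 2.11 and 1.43 CPM and at 4.09 and 10.2 CPM (log2 1.99, SE 0.51). In M26.Agrp 9 of the list could be tested, 7 were higher in both Insulin libraries, and the median was 0.94 against 0.00 over all genes. Of all genes 16.2% were higher in both there. Junb, a partner of Fos, had the smallest p there, at 20.3 and 20.7 CPM in the Saline libraries and 67.7 and 69.1 CPM in the Insulin libraries (log2 1.71, SE 0.25, edgeR adjusted p = 0.192). In edgeR's fit blocked on the run, 4 genes of the 9 tested were called in M26.Agrp, each higher after insulin. The calls over all genes in this blocked fit are given with the Gem levels above and at the end. They were Junb (log2 1.71, SE 0.26, adjusted p = 3.12e-07), Btg2 (log2 0.96, edgeR adjusted p = 0.00396), the zinc finger factor Egr1 (log2 1.499, edgeR adjusted p = 0.0133) and Fos (log2 1.54, edgeR adjusted p = 0.0280). This list was chosen knowing that such genes were higher after insulin in these libraries, so it is not independent evidence of that direction. The same holds for the adjusted p-values of its genes.

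**Figure D5:**
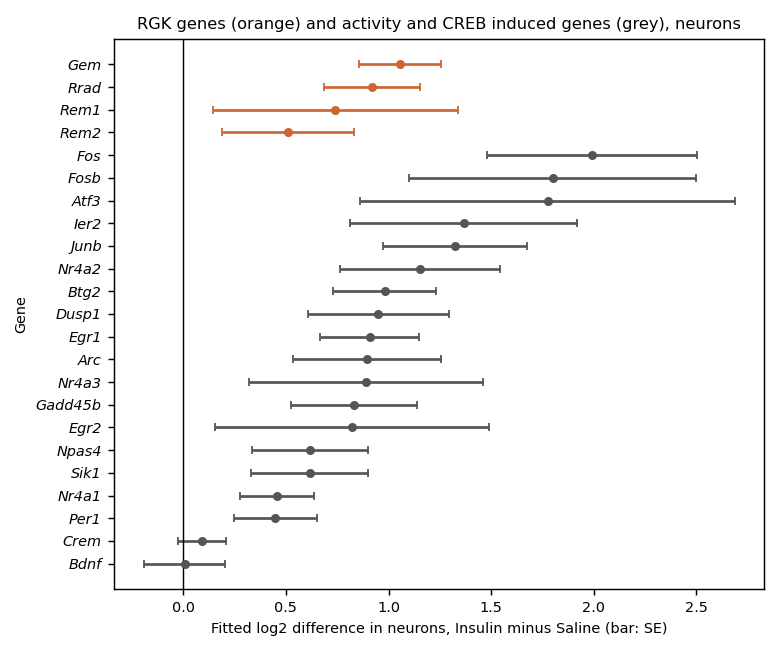
Fitted log2 difference in neurons, Insulin minus Saline, with its SE as a bar, for the 4 RGK genes (orange) and 19 activity- and CREB-induced genes (grey). Gem at 1.06 and Rrad at 0.92 lie among the grey points, which run from about 0 for Bdnf to 1.99 for Fos. None of the listed genes passed the adjusted threshold in edgeR.

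The channel genes on which RGK proteins act showed no such shift. The 4 beta subunits, the direct partners, had log2 differences of 0.03 (Cacnb1, SE 0.16), -0.01 (Cacnb2, SE 0.11), 0.14 (Cacnb3, SE 0.15) and -0.09 (Cacnb4, SE 0.13) in neurons. Cacnb3 alone was higher in both Insulin libraries, at 14.2 and 16.60 CPM in the Saline libraries of runs 230 and 232 and 16.61 and 17.5 CPM in the Insulin libraries, a margin within the spread of the Saline libraries. The 7 high-voltage-activated pores had a median of -0.05, with 1 separated upward, and Cacna1s (log2 0.34, SE 0.41) and Cacna1f (log2 -0.51, SE 0.49) had the smallest p in each direction. Of the 3 pores of T-type channels, which RGK proteins are not known to inhibit, 2 were lower in both Insulin libraries. Cacna1i was at 47.4 and 42.1 CPM against 38.5 and 35.6 CPM (log2 -0.28, SE 0.14) and Cacna1h at 32.7 and 33.7 CPM against 29.3 and 29.1 CPM (log2 -0.19, SE 0.12), while Cacna1g had log2 0.03. For all genes in neurons 11.6% were lower in both and 8.74% higher in both. None of the 4 alpha2delta subunits was separated (median -0.06, from Cacna2d2 at 0.22 to Cacna2d3 at -0.12 for the smallest p in each direction).

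Among 19 partners and effectors (among them calmodulins, 14-3-3 proteins, CaM kinases, Gmip, Ezr and Kif9) 3 were higher and 1 lower in both Insulin libraries in neurons, with a median of 0.05. Of all genes in neurons 8.74% were higher in both and 11.6% lower in both. Ywhag, a 14-3-3 protein, had the smallest p upward (log2 0.13, SE 0.10) and Camk2a, a CaM kinase, downward (log2 -0.10, SE 0.12). Of 7 CREB regulators, Crtc1, a CREB coactivator, was the 1 lower in both, at 64.2 and 65.7 CPM against 57.8 and 57.5 CPM (log2 -0.18, SE 0.10), and Crtc3 had log2 0.03. The 12 other Ras-like GTPases had a median of 0.10. Rasd1, a GTPase induced by glucocorticoids, was higher in both Insulin libraries, at 1.49 and 2.76 CPM in the Saline libraries and 3.29 and 5.31 CPM in the Insulin libraries (log2 1.01, SE 0.41), and Rerg had the smallest p downward (log2 -0.08, SE 0.13). In edgeR 0 genes of any of these lists passed the adjusted threshold.

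Across cell types most channel genes tested were higher in neurons than in the mean of the other types. In neurons against the mean of the other types, 5 of 5 high-voltage-activated pores tested, 3 of 3 T-type pores, 4 of 4 beta subunits and 3 of 4 alpha2delta subunits were higher by edgeR's test, as were 36.4% of all genes. Their median log2 differences were 2.21, 2.95, 1.13 and 1.61, against 0.02 over all genes. Cacna1e (log2 3.32), Cacna1b (log2 3.44) and Cacna1i (log2 3.08) were among the largest. The beta subunits stood at log2 1.39 (Cacnb3), 1.37 (Cacnb2), 0.89 (Cacnb4) and 0.63 (Cacnb1), with the largest edgeR adjusted p = 5.21e-05. In nuclei labelled Mural Cell 1 beta subunit passed, Cacnb4, which was lower (log2 -1.57, SE 0.29, edgeR adjusted p = 4.32e-05). Of the activity- and CREB-induced genes 10 of 14 tested were higher in nuclei labelled Mural Cell and 0 lower, where 18.0% of all genes were higher and 15.9% lower (median log2 2.55, -0.13 over all genes). In neurons 3 of the 14 were higher and 6 lower, where 36.4% of all genes were higher and 32.5% lower.

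Channel genes went both ways in M26.Agrp against the other populations. By edgeR's test 4 of 6 high-voltage-activated pores were higher and 1 lower, 0 of 3 T-type pores higher and 2 lower, 1 of 4 beta subunits higher and 1 lower, and 0 of 4 alpha2delta subunits higher and 2 lower. The T-type pores Cacna1g (log2 -2.13, SE 0.17, edgeR adjusted p = 1.13e-21) and Cacna1i (log2 -1.43, SE 0.16, edgeR adjusted p = 1.28e-13) were lower. Of the L-type pores Cacna1d was higher (log2 0.73, SE 0.05, edgeR adjusted p = 5.77e-26) and Cacna1c lower (log2 -0.64, SE 0.05, edgeR adjusted p = 5.92e-20). Of the beta subunits Cacnb2 was higher (log2 0.71, SE 0.06, edgeR adjusted p = 1.78e-20) and Cacnb3 lower (log2 -0.60, SE 0.19, edgeR adjusted p = 0.00794). The alpha2delta subunits Cacna2d3 (log2 -0.96) and Cacna2d1 (log2 -0.59) were lower. Over all genes 21.3% were higher and 16.4% lower in M26.Agrp. Of the activity- and CREB-induced genes 8 of 14 were higher there and 1 lower (median log2 0.85, 0.02 over all genes), led by Btg2 (log2 2.26) and Junb (log2 1.98).

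The genes whose mean log2 CPM followed that of Gem most closely over the 35 populations, of 12403 compared, were Mapk1ip1l (Pearson r 0.83), Slc7a1 (0.82), Tra2b (0.78), Fbxo4 (0.77) and Srsf5 (0.77). For Rrad they were Ptprn (0.81), Hacd3 (0.77), Vgf (0.76), Gm28294 (0.75) and Rad54l2 (0.75). Gem and Rrad had r 0.63 with each other. Slc7a1 is a cationic amino acid transporter, Tra2b and Srsf5 are splicing factors, Ptprn is a dense-core vesicle protein and Vgf a secreted neuropeptide precursor. These are descriptions over population means from the same 4 libraries, and low counts limit them for Rrad, which had 1262 UMIs in neurons. Rem1 and Rem2, with 78 and 453 UMIs in neurons, were not compared in this way.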

How the data were processed

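Nuclei of the mediobasal hypothalamus were profiled with 10x 3′ libraries, 2 Saline and 2 Insulin. The authors deposited raw UMI counts per gene and nucleus, and the submitters' processing notes name Cell Ranger and GRCm38, whose versions are not given in the sources used here. They also deposited a table of library, run, treatment, cell type and neuron population for 36534 nuclei, of which 11 matched no barcode. The 4633 barcodes without annotation, 423 nuclei labelled Doublets and 1116 Unassigned entered no cell type, and the last 2 sets entered the sums over all nuclei. No doublet caller was run.

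Counts were summed per library over all nuclei, 8 cell types and 35 of 37 populations with at least 10 nuclei in every library. They were tested with edgeR 4.0.16 (R 4.3.3) on genes past filterByExpr (minimum count 10, minimum total 15), with TMM scaling and the quasi-likelihood test, and p-values were adjusted by Benjamini-Hochberg at 0.05. Treatment was fitted without a block, and cell types and populations against the mean of the others with the library as a term. CPM was taken over every UMI of the nuclei in question in a library, and log2 CPM within a run a prior count of 0.5. Shares were thinned by calculation to 1500 or 5000 UMIs, leaving out 3028 neurons of lower depth at 5000, and intervals are exact (Clopper-Pearson, 95%).

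The fits were run on simulated data. Their dispersion and, for treatment, their run effect were set in advance and not matched to these libraries. No error rate for the results here is read from them. Alternatives were DESeq2 1.42.0, no filter, the run as replicate block, no library term, and each library left out in turn. Deviations from the group means were shared within a run (correlation 0.701 over 21190 genes in all nuclei, 0.680 in neurons and 0.418 in M26.Agrp), so the run, which the deposited table gives for each library, pairs 1 Saline with 1 Insulin library.

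The members and all gene lists were chosen with earlier results of these data known. The text always names the 4 members and the 4 Cacnb genes. From each list it names up to 3 genes past the adjusted threshold, or else the gene of smallest p in each direction. It names the 5 genes most like a member, among those with at least 1000 UMIs in neurons, for members with at least 500. It names the 5 highest and 3 lowest populations of each member, and for the Gem difference the 6 largest, the 3 smallest, M26.Agrp, M35.Pomc and any population lower in both runs. A population that this rule names is not reported here.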

Additional observations from a re-analysis of the deposited data

Results flagged for a closer look

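In 5 groups of nuclei Gem or Rrad went the opposite way from M26.Agrp, being lower in the Insulin library in both runs where M26.Agrp was higher in both. For Gem these were the nuclei labelled Endothelial, with a mean log2 difference over the 2 runs of -0.34, M7.Ust with -0.65 and M20.GABA with -0.15. For Rrad they were the nuclei labelled Mural Cell with -0.14, from 20 UMIs, and M32.Pdyn/Grp with -0.61, from 23 UMIs. The difference between these groups and M26.Agrp was not tested. No library stood apart from the other 3 in any of 42 sets of levels (Dixon's test). Each set pooled Saline and Insulin libraries, so a difference between the groups widens its range. With 4 values the test has little power, and nothing is concluded from it.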

How the results depend on the processing

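With the run as a replicate block the differences of Gem in all nuclei, neurons and M26.Agrp were log2 0.96, 1.04 and 1.85, and those of Rrad 0.84, 0.92 and 1.32, and edgeR called 0 genes in all nuclei (1339 at an unadjusted p under 0.05), 0 in neurons (1862) and 32 in M26.Agrp, 4 of them on the lists. DESeq2 with the run as a replicate block, added after seeing the data, called 5 genes in all nuclei (1 on the lists), 10 in neurons (3 on the lists) and 1 in M26.Agrp. In M26.Agrp DESeq2 called 1 gene, and no filter on low counts gave 8, 2 of them on the lists. Leaving out each library in turn gave Gem 0.75 to 1.17 in all nuclei and 0.82 to 1.26 in neurons, and Rrad 0.68 to 0.98 and 0.74 to 1.08. In M26.Agrp the same gave 0 to 186 genes called and 0 to 2 list genes, the most without the Saline library of run 232. Rrad in neurons was 0.83 without M26.Agrp and 0.72 without M26.Agrp, M27.Trh and M31.Th, 2 sets added after seeing the data. Rem1 in neurons against the other types was 0.39 in edgeR, where it did not pass, and -1.02 in DESeq2 (adjusted p = 0.0468). Types with 0 Rem1 UMIs enter that mean. Low counts limit Rem1 and Rem2 throughout, with 152 and 508 UMIs in all, and the 20 Rrad UMIs of nuclei labelled Mural Cell.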
